A study of Mus musculus with 15 samples.

Results

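The crosslinks of tristetraprolin (TTP) were examined on 6 mouse genes of the p53 pathway. These were Mdm2, Mdm4 and Trp53, which set the level and activity of p53, and Cdkn1a, Ccng1 and Gdf15, which p53 induces. They were picked as named genes of the pathway, with earlier results of these data known, and they are 6 of the 4835 genes that had at least 1 listed crosslink site in a 3′UTR. Individual-nucleotide resolution crosslinking and immunoprecipitation (iCLIP) fixes a protein to the RNA it touches with UV light and reads the touched nucleotide from the end of the cDNA. The cells were C57BL/6 bone marrow-derived macrophages without endogenous TTP, immortalised with the oncogenes hcmyc and hRasG12V, selected as CD11b and F4/80 positive, and transduced with a tet-inducible vector for GFP-TTP or for GFP-TTP-AA. In TTP-AA, the serines that the kinase MK2 phosphorylates are replaced by alanine. All groups had received 6 h of doxycycline, and each protein was studied without LPS (0 h) and after 1 h and 4 h of LPS. The TTP groups held 2, 4 and 2 libraries at 0 h, 1 h and 4 h, and the TTP-AA groups held 2, 3 and 2. The introduced TTP was the coding sequence alone, so every level below belongs to an oncogene-transformed line with a tagged protein that lacks its own regulatory 3′UTR.

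p53 is a transcription factor that is kept low by MDM2, an E3 ubiquitin ligase that marks it for degradation, and by the related protein MDM4, which binds and inhibits it. Because p53 in turn induces Mdm2, the pair forms a feedback loop, and after DNA damage or oncogene activity p53 induces genes of cell cycle arrest, apoptosis and stress signalling. TTP binds AU-rich elements in 3′UTRs, whose core is the pentamer AUUUA, and recruits the machinery that removes the poly(A) tail and degrades the mRNA, and phosphorylation by MK2 weakens that activity.

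The sites were deposited as 6 lists, 1 for each group, in which the libraries of a group are summed. A list held between 8052 and 86497 sites with between 19167 and 174397 unique cDNAs, of which 3.12% to 53.6% lay in 3′UTRs, so that the 3′UTR total ranged from 906 cDNAs (TTP, 4 h) to 93510 cDNAs (TTP-AA, 1 h). A ribosomal RNA locus on chromosome 17 took between 10.5% and 32.1% of a list. Since no replicate values could be had from the sums, each test below compares lists and not conditions, and intervals cover counting error only. A list holds only sites that passed the authors' false-discovery threshold, so a gene with few cDNAs in a shallow list is easily left out and a count of 0 means no listed site. The headers of the 1 h lists carried a setting for peak calling that those of the 0 h and 4 h lists lacked, so time and peak calling cannot be told apart. Of 6 macrophage markers (Adgre1, Itgam, Csf1r, Lyz2, Cd68, Mrc1), 6 had 3′UTR cDNAs with TTP-AA at 1 h, 3 with TTP at 1 h, 1 (Lyz2) with TTP at 0 h and 0 in the other lists, whereas 0 of 5 markers of other cell types (Cd3e, Epcam, Col1a1, Pecam1, Ly6g) had any in any list.

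The 6 genes held 3311 cDNAs over the 6 lists, and 3202 of them (96.7%) lay in 3′UTRs. Mdm2 carried 1984 of these 3′UTR cDNAs, Cdkn1a 619, Gdf15 395, Ccng1 173, Trp53 19 and Mdm4 12. The genes were thus split into 4 with many crosslinks and 2, Trp53 and Mdm4, with few. Together they made up 3.16% of the 3′UTR cDNAs of TTP at 0 h (95% Wilson interval 2.68% to 3.72%) and 3.25% at 1 h (2.92% to 3.63%). The share was 2.01% (1.69% to 2.40%) for TTP-AA at 0 h, 2.80% (2.69% to 2.91%) at 1 h and 1.50% (0.911% to 2.46%) at 4 h. The TTP list at 4 h held no site in any of the 6 genes, in any region.

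**Figure D1:**
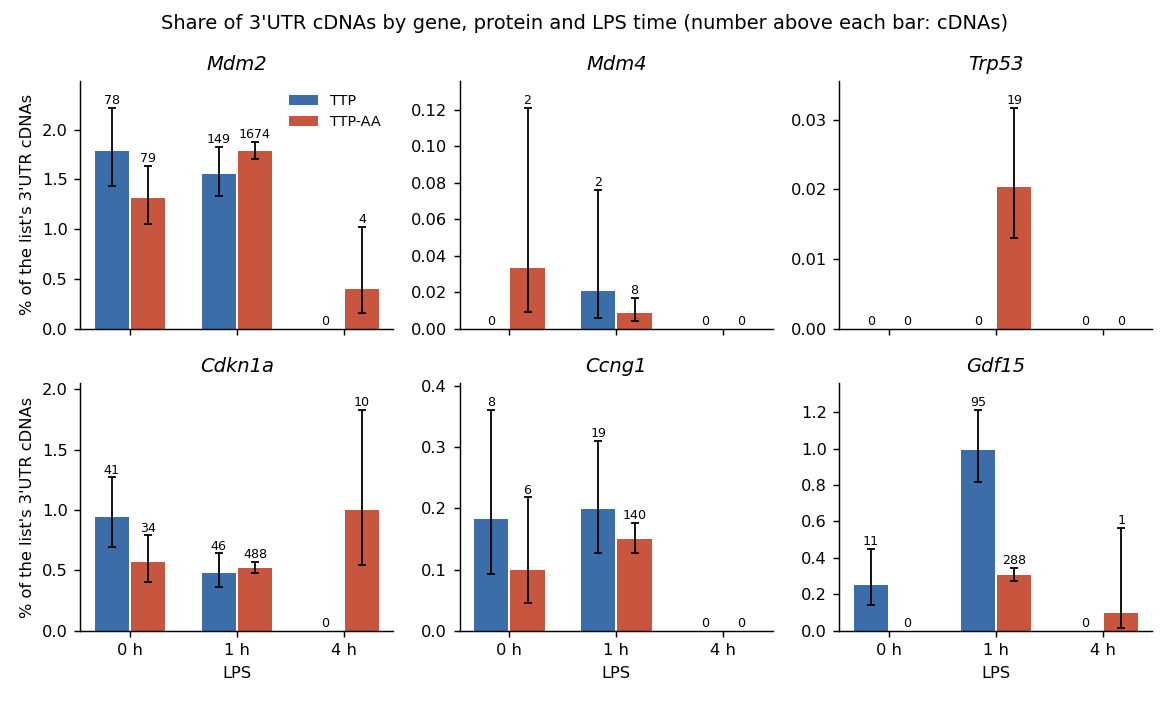
Share of a list's 3′UTR cDNAs in each gene (y axis, percent, with its own scale for each gene) by LPS time (x axis) for TTP (blue) and TTP-AA (red). Bars are the values of the pooled lists, error bars are 95% Wilson intervals, and the number above a bar is its count of cDNAs. Mdm2 reached 1674 cDNAs with TTP-AA at 1 h, no gene had a TTP bar at 4 h, and Gdf15 was the gene in which the TTP bar at 1 h (0.994%) stood above the TTP-AA bar (0.308%) with intervals apart.

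Mdm2 (ENSMUSG00000020184.15, chr10:117688875-117710758, GRCm38, minus strand) was among the most crosslinked 3′UTRs of every list in which it had more than a few cDNAs. At 0 h, 1 h and 4 h its 3′UTR held 78, 149 and 0 cDNAs with TTP, and 79, 1674 and 4 with TTP-AA. By 3′UTR cDNAs it ranked number 1 of 738 genes with TTP at 0 h and number 6 of 1295 at 1 h. With TTP-AA it ranked number 6 of 894 genes at 0 h, number 2 of 4468 at 1 h and number 49 of 198 at 4 h. Its counts were thus alike for both proteins before LPS, highest with TTP-AA at 1 h, and near or at 0 for both at 4 h.

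The 3′UTR of Mdm2 is a single exon block of 1335 nt (chr10:117688875-117690209) with 8 AUUUA pentamers, a motif that 65.2% of the longest 3′UTRs of 21022 protein-coding genes hold at least once on the transcribed strand. The pentamers start at nucleotides 127, 383, 388, 392, 441, 1213, 1257 and 1279 after the stop codon, and the last lies in the octamer UAUUUAUU, which 15.5% of 3′UTRs hold. The 4 windows of 30 nt with most cDNAs over both 1 h lists are printed here 5′ to 3′, as they show the RNA under the largest peaks of the gene, with AUUUA in capitals.
Mdm2 nt 367 to 396, chr10:117689814-117689843, minus strand: uguuaauaauaagaacAUUUAAUUUAUUUA
Mdm2 nt 433 to 462, chr10:117689748-117689777, minus strand: gauuguauAUUUAaguuauugaaauucuga
Mdm2 nt 1244 to 1273, chr10:117688937-117688966, minus strand: uucuuaaauguuuAUUUAgaaauggcauug
Mdm2 nt 227 to 256, chr10:117689954-117689983, minus strand: uuuauauuuuccuuauauuuuaaauaaucu

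The first window holds 3 pentamers, 2 of which share an A. At 1 h it took 29 of 149 cDNAs with TTP (19.5%) and 288 of 1674 with TTP-AA (17.2%), and its strongest site, the A at nucleotide 387, is the most crosslinked nucleotide of the gene with 46 TTP-AA cDNAs. The second window, around the pentamer at 441, took 32 TTP cDNAs (21.5%) and 230 TTP-AA cDNAs (13.7%) at 1 h. The third, in the distal cluster, took 28 (18.8%) and 224 (13.4%). The fourth window holds no AUUUA, although it is made largely of A and U, and it took 9 TTP cDNAs (6.04%) and 132 TTP-AA cDNAs (7.89%). None of these 30 nt sequences occurs in an annotated transcript of another gene, and the same holds for every window printed below.

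Before LPS the clusters of Mdm2 were already occupied, except that TTP-AA had none at the most proximal pentamer. In stretches that reach 20 nt beyond each pentamer, TTP at 0 h had 9 cDNAs around the pentamer at 127, 11 around the triple pentamer, 25 around 441 and 24 around the 3 distal pentamers, with 9 elsewhere in the 3′UTR. TTP-AA at 0 h had 0, 20, 15 and 31, with 13 elsewhere. At 1 h these numbers were 11, 36, 32 and 39 with 31 elsewhere for TTP, and 120, 345, 253 and 364 with 592 elsewhere for TTP-AA. Most of the latter fell between nucleotides 152 and 362, with 366 TTP-AA cDNAs against 16 TTP cDNAs, and in the first 106 nt, with 122 against 6. The 727 nt between the proximal and the distal pentamers held 4 TTP and 81 TTP-AA cDNAs, and the last 32 nt held none in any list.

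**Figure D2:**
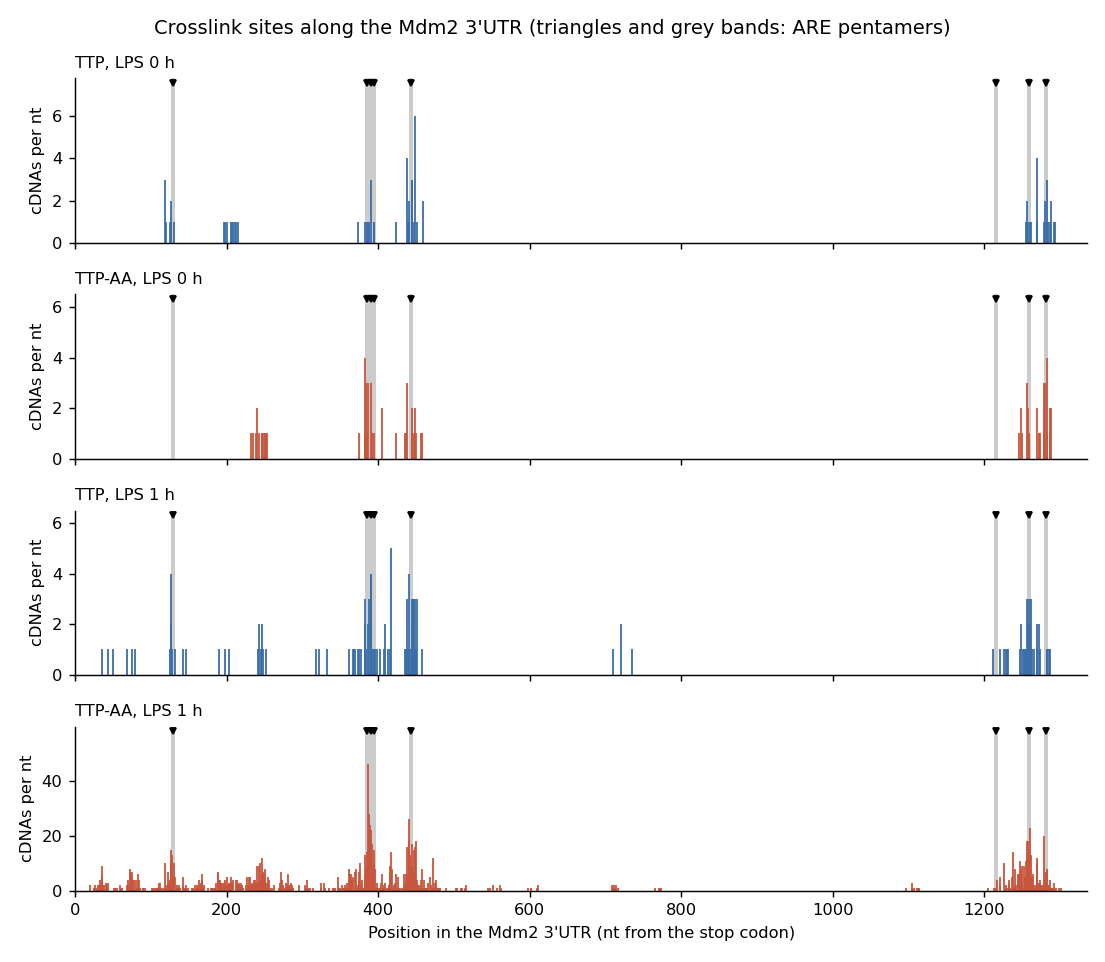
Unique cDNAs at each nucleotide (y axis, own scale for each panel) along the 3′UTR of Mdm2 (x axis, nt from the stop codon) for TTP and TTP-AA at 0 h and 1 h. Triangles and grey bands mark the 8 AUUUA pentamers. The crosslinks gathered at the pentamers near nucleotides 127, 383 to 392, 441 and 1213 to 1279 in the lists at 1 h, and TTP-AA at 1 h also covered the stretch from 152 to 362.

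The TTP-AA cDNAs of Mdm2 at 1 h were also stacked higher. They lay at 413 sites with a mean of 4.05 cDNAs per site, whereas the 149 TTP cDNAs lay at 98 sites with a mean of 1.52. The mean over all 3′UTR sites was 1.53 in the TTP-AA list and 1.41 in the TTP list at 1 h. At 0 h the means of Mdm2 were 1.53 (TTP, 51 sites) and 1.58 (TTP-AA, 50 sites). A mean per site depends on how many cDNAs a 3′UTR holds, and the proteins were not compared at equal numbers of cDNAs. With TTP-AA at 1 h the mean was 1.73 for Ccng1 (140 cDNAs), 3.51 for Gdf15 (288) and 3.17 for Cdkn1a (488).

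Outside the 3′UTR, Mdm2 held few cDNAs. TTP-AA at 1 h had 29 in the coding sequence, of which 19 lay in exon 5 and 10 in exon 12, the last, where the nearest lay 7 nt before the end of the stop codon. TTP at 1 h had 3 in each of the same exons. Introns 2, 3, 6, 10 and 11 held between 6 and 10 TTP-AA cDNAs each at 1 h, and intron 4 held 4 TTP cDNAs at 0 h. No site lay on the opposite strand of Mdm2 or of any other of the 6 genes.

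Mdm4 (ENSMUSG00000054387.13, chr1:132959484-133030561, minus strand), the second inhibitor of p53, showed almost no 3′UTR crosslinks. Its longest 3′UTR spans 5436 nt with 11 pentamers, and it held 0, 2 and 0 cDNAs with TTP and 2, 8 and 0 with TTP-AA at 0 h, 1 h and 4 h. The 8 TTP-AA cDNAs at 1 h all lay within 20 nt of a pentamer, 4 of them in the window printed here to show the RNA there. The remaining 4 of the 12 3′UTR cDNAs of Mdm4, 2 with TTP at 1 h and 2 with TTP-AA at 0 h, lay between nucleotides 3944 and 3953, away from any pentamer.
Mdm4 nt 2744 to 2773, chr1:132988883-132988912, minus strand: cuuauuuugcuuuuuAUUUAaguuuuuguu
The rest of the 25 cDNAs of Mdm4 were intronic. Intron 5 held 3 at 0 h and 5 at 4 h, and intron 8 held 5 at 0 h, all with TTP-AA. Mdm4 was the member with the smallest share of its cDNAs in the 3′UTR, 48.0%, whereas the others ranged from 96.2% (Mdm2) to 100% (Trp53 and Ccng1).

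Trp53 (ENSMUSG00000059552.13, chr11:69580359-69591873, plus strand), which encodes p53 itself, had crosslinks in 1 list. TTP-AA at 1 h had 19 cDNAs at 11 sites, and the other 5 lists had none. All 19 fell in the window below, shown because it holds a long run of U and no pentamer.
Trp53 nt 493 to 522, chr11:69591801-69591830, plus strand: cccucuuuuuuuuuuuuuuaccccuuuuua
The 3′UTR of Trp53 (565 nt) holds 1 AUUUA, at nucleotide 469, and no cDNA lay within 20 nt of it.

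Cdkn1a (ENSMUSG00000023067.14, chr17:29090976-29100727, plus strand) encodes p21, the inhibitor of cyclin-dependent kinases through which p53 halts the cell cycle. Its 3′UTR held 41, 46 and 0 cDNAs with TTP and 34, 488 and 10 with TTP-AA at 0 h, 1 h and 4 h, and it ranked between number 12 and number 23 in the 5 lists in which it appeared. It was the member with most cDNAs at 4 h, all of them TTP-AA. The 3′UTR (1334 nt, chr17:29099394-29100727) holds 4 pentamers at nucleotides 107, 166, 276 and 1327. The 2 windows with most cDNAs are shown because both lie at AU-rich stretches in the first 300 nt, the first ending inside a pentamer.
Cdkn1a nt 80 to 109, chr17:29099473-29099502, plus strand: ugugucuuaauuauuauuuguguuuuaauu
Cdkn1a nt 253 to 282, chr17:29099646-29099675, plus strand: uuucuauuauguagauuauuauuAUUUAag
At 1 h the first took 13 of 46 cDNAs with TTP (28.3%) and 184 of 488 with TTP-AA (37.7%), and the second took 15 (32.6%) and 141 (28.9%). At 0 h the same windows had 16 and 22 TTP cDNAs and 12 and 14 TTP-AA cDNAs, and at 4 h 7 of the 10 TTP-AA cDNAs lay in the second. The pentamer at 1327, close to the end of the 3′UTR, had no cDNA near it in any list. As in Mdm2, and with the same limit of unequal counts, the TTP-AA cDNAs at 1 h were stacked. They had 3.17 per site at 154 sites against 1.28 per site at 36 sites for TTP.

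Ccng1 (ENSMUSG00000020326.7, chr11:40748552-40755311, minus strand) encodes cyclin G1, a p53 target that directs the phosphatase PP2A to MDM2. Its 3′UTR of 2316 nt had 8, 19 and 0 cDNAs with TTP and 6, 140 and 0 with TTP-AA. Of its 8 pentamers, the one at nucleotide 1775 took most crosslinks, in the window shown here.
Ccng1 nt 1753 to 1782, chr11:40749086-40749115, minus strand: ugaauuaucacucugaaaauguAUUUAuug
At 1 h this window took 12 of 19 cDNAs with TTP (63.2%) and 60 of 140 with TTP-AA (42.9%), and 7 of the 8 TTP cDNAs at 0 h. The 6 TTP-AA cDNAs at 0 h lay instead around the pentamers at 1534 and 1574, where TTP had none. The pentamers at 645, 1157, 1404 and 1418 had no cDNA within 20 nt in any list.

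Gdf15 (ENSMUSG00000038508.7, chr8:70629393-70632456, minus strand) encodes a secreted member of the TGF-β superfamily that rises in stressed cells. Its 3′UTR is the shortest of the 6 (150 nt, chr8:70629393-70629542) and holds 5 pentamers and 2 copies of UAUUUAUU, so that 70.0% of its nucleotides have a whole pentamer within 20 nt. TTP had 11, 95 and 0 cDNAs at 0 h, 1 h and 4 h, and TTP-AA had 0, 288 and 1. Gdf15 was thus the member in which TTP was present before LPS and TTP-AA was not. The windows below hold the peak of the gene and the next pentamer.
Gdf15 nt 57 to 86, chr8:70629457-70629486, minus strand: AUUUAuuaauauuauuaAUUUAuugggguc
Gdf15 nt 87 to 116, chr8:70629427-70629456, minus strand: gggcuggguggauggauuguguAUUUAuuu
At 1 h the first window took 78 of 95 cDNAs with TTP (82.1%) and 146 of 288 with TTP-AA (50.7%), and the second took 10 (10.5%) and 86 (29.9%). Nucleotide 73, the A just before the third pentamer, was the strongest site for both proteins, with 17 TTP and 27 TTP-AA cDNAs. The 11 TTP cDNAs at 0 h all lay in the first window.

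**Figure D3:**
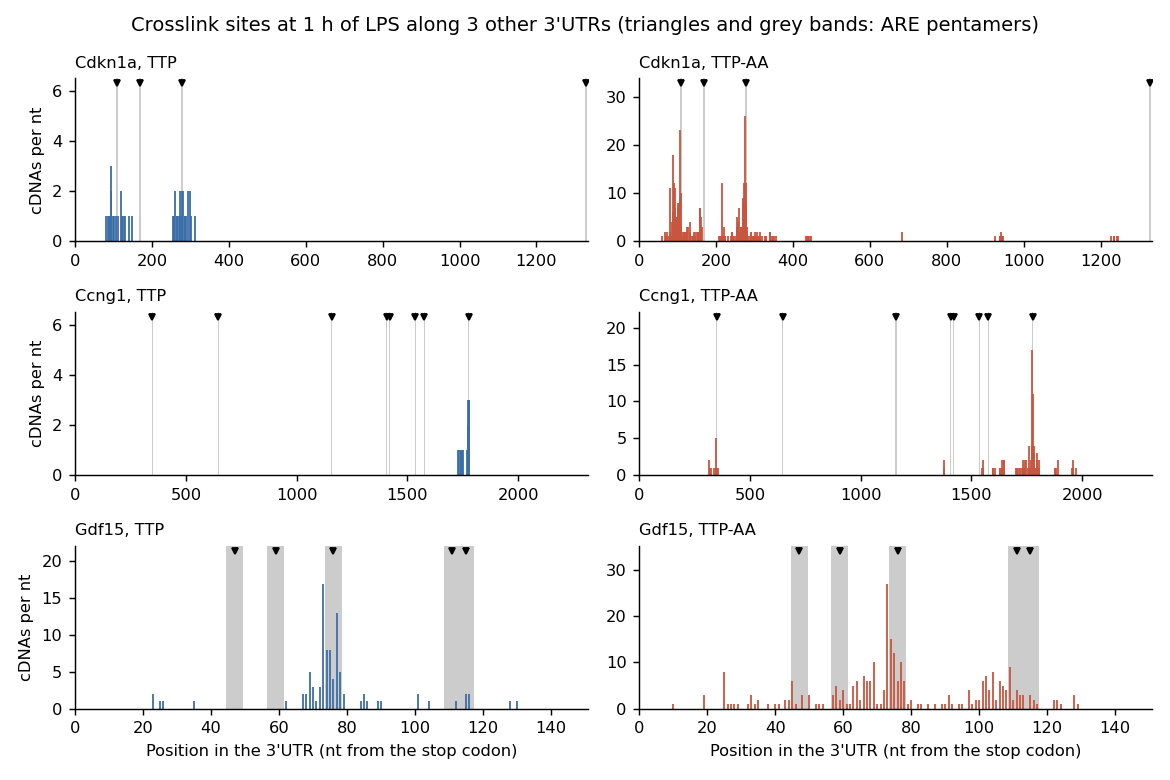
Unique cDNAs at each nucleotide (y axis, own scale for each panel) along the 3′UTRs of Cdkn1a, Ccng1 and Gdf15 (x axis, nt from the stop codon) at 1 h, with TTP on the left and TTP-AA on the right. Triangles and grey bands mark AUUUA pentamers. Cdkn1a was crosslinked mainly in the first 300 nt, Ccng1 mainly at nucleotide 1775 and Gdf15 with its highest site at nucleotide 73 for both proteins.

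Set per kb of 3′UTR, Gdf15, Mdm2, Cdkn1a and Ccng1 followed each other in this order for both proteins at 1 h. With TTP-AA, Gdf15 had 1920 cDNAs per kb (95% Poisson interval 1705 to 2155), Mdm2 1254 (1195 to 1315), Cdkn1a 366 (334 to 400), Ccng1 60.4 (50.9 to 71.3), Trp53 33.6 (20.2 to 52.5) and Mdm4 1.47 (0.635 to 2.90). The intervals of Ccng1 and Trp53 overlapped slightly and those of the other neighbours did not. With TTP, Gdf15 had 633 cDNAs per kb (512 to 774), Mdm2 112 (94.4 to 131), Cdkn1a 34.5 (25.2 to 46.0), Ccng1 8.20 (4.94 to 12.8) and Mdm4 0.368 (0.0446 to 1.33), with Trp53 listed at 0. At 0 h with TTP, Gdf15 had 73.3 per kb (36.6 to 131) and Mdm2 58.4 (46.2 to 72.9), with overlapping intervals, followed by Cdkn1a with 30.7 (22.1 to 41.7) and Ccng1 with 3.45 (1.49 to 6.81). With TTP-AA at 0 h the order was another, with Mdm2 at 59.2 per kb (46.9 to 73.8), Cdkn1a at 25.5 (17.7 to 35.6), Ccng1 at 2.59 (0.951 to 5.64), Mdm4 at 0.368 (0.0446 to 1.33) and Gdf15 listed at 0.

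The comparison of TTP-AA with TTP asks whether the loss of the MK2 sites changes which mRNAs are bound. Each gene's share of the 3′UTR cDNAs of a list was compared by Fisher's exact test, with p-values adjusted by the Benjamini-Hochberg method over every gene with at least 10 cDNAs in the pair of lists and a threshold of 0.05. A count of cDNAs depends on the amount of an mRNA as well as on its binding, and the lists cannot tell these apart. At 1 h the cDNAs of every member were more numerous with TTP-AA, for which the 3′UTR total was 9.78 times that of TTP. Mdm2 had 149 TTP and 1674 TTP-AA cDNAs, a ratio of 11.2 (95% interval 9.50 to 13.4), Cdkn1a had a ratio of 10.6 (7.83 to 14.7), Ccng1 of 7.37 (4.55 to 12.6), Mdm4 of 4.00 (0.798 to 38.7) and Gdf15 of 3.03 (2.40 to 3.86), and Trp53 had 19 cDNAs against none.

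As a share of 3′UTR cDNAs, 1 of the 6 members passed the test at 1 h, beside 6.39% of all 2065 genes tested (4.41% lower and 1.99% higher in TTP-AA). This was Gdf15, which was lower in TTP-AA (0.308%, interval 0.274% to 0.346%) than in TTP (0.994%, 0.814% to 1.21%), with an odds ratio of 0.308 (adjusted p = 8.10e-17, Fisher's exact test), but higher when scaled to all cDNAs of a list (log2 ratio 0.78, adjusted p = 8.94e-06, Fisher's exact test). The share of Mdm2 was 1.79% (1.71% to 1.88%) against 1.56% (1.33% to 1.83%), with an odds ratio of 1.15 (adjusted p = 0.391, Fisher's exact test). For Cdkn1a the shares were 0.522% and 0.481% (adjusted p = 0.747), for Ccng1 0.150% and 0.199% (adjusted p = 0.571), for Mdm4 0.00856% and 0.0209% and for Trp53 0.0203% against none (both adjusted p = 0.567; Fisher's exact test for all 4). Over the 5 members with cDNAs in both lists the median log2 ratio of shares was -0.41, beside -0.46 over the 925 such genes of all those tested.

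The result for Mdm2 and Cdkn1a at 1 h depended on what was counted. With each site counted once, Mdm2 was lower in TTP-AA (log2 ratio -1.10, adjusted p = 3.90e-08, Fisher's exact test) and so was Cdkn1a (-1.07, adjusted p = 0.00728), whereas restricted to sites with at least 2 cDNAs Mdm2 (0.72, adjusted p = 8.85e-05) and Cdkn1a (0.93, adjusted p = 0.0423) were higher. Both alternatives depend on depth, as Mdm2 had 4.05 cDNAs per site with TTP-AA and 1.52 with TTP, and Cdkn1a 3.17 and 1.28. The lists were not compared at equal depth, so these calls do not show a difference between the proteins. The same limit holds wherever these alternatives are used below. The log2 ratios were also scaled to all cDNAs of a list, of which 53.6% were 3′UTR cDNAs with TTP-AA and 9.63% with TTP. Without the pseudocount this moves a ratio up by 2.48. With it, genes with few or no cDNAs in a list moved less, as Trp53 did from 4.46 to 4.95. On that scale Mdm2 was higher in TTP-AA by 2.67 (adjusted p = 8.03e-169), Cdkn1a by 2.58 (adjusted p = 2.47e-47), Ccng1 by 2.05 (adjusted p = 9.12e-11) and Trp53 by 4.95 (adjusted p = 8.51e-04; Fisher's exact test for all 4), Mdm4 was not called (1.06, adjusted p = 0.372), and 1754 genes were called higher and 9 lower, instead of 41 and 91.

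**Figure D4:**
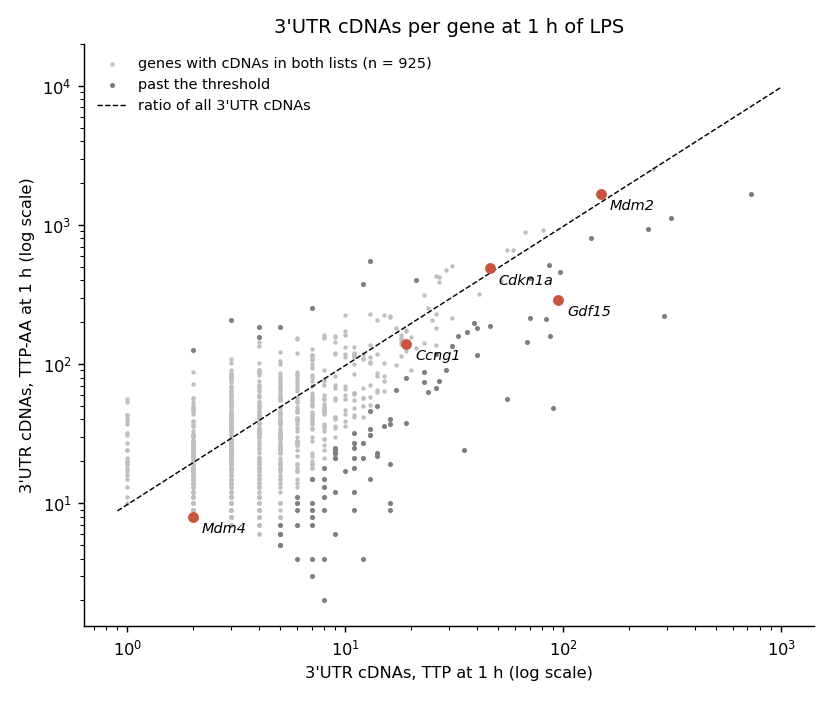
3′UTR cDNAs of each gene at 1 h with TTP (x axis, log scale) and TTP-AA (y axis, log scale), for the 925 tested genes with cDNAs in both lists (light grey), those past the threshold (dark grey) and the members (red). The dashed line is the ratio of the 3′UTR totals, 9.78. Mdm2 and Cdkn1a lay on the line, at 149 and 1674 and at 46 and 488 cDNAs, and Gdf15 lay below it, at 95 and 288.

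Before LPS, 4 members could be tested and 1 passed, beside 30.7% of 241 genes (13.3% lower in TTP-AA). Gdf15 had 11 TTP cDNAs, 0.252% of the list (0.141% to 0.450%), and none with TTP-AA (adjusted p = 7.35e-04, Fisher's exact test), and so entered the test through the TTP list alone. Mdm2 held 1.79% (1.43% to 2.22%) of the TTP and 1.31% (1.06% to 1.64%) of the TTP-AA 3′UTR cDNAs (adjusted p = 0.157, Fisher's exact test). Cdkn1a held 0.938% (0.693% to 1.27%) and 0.566% (0.405% to 0.790%, adjusted p = 0.0987), and Ccng1 0.183% and 0.0999% (adjusted p = 0.476; Fisher's exact test for both). Restricted to sites with at least 2 cDNAs, Cdkn1a passed (log2 ratio -1.48, adjusted p = 0.0169, Fisher's exact test). Scaled to all cDNAs, the difference of Mdm2 turned (0.06, adjusted p = 0.905, Fisher's exact test), and 59 genes were called higher in TTP-AA and 19 lower, instead of 42 and 32.

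At 4 h, Cdkn1a alone had enough cDNAs to be tested. It had 10 TTP-AA cDNAs, 1.00% of that list (0.544% to 1.83%), and none with TTP (adjusted p = 0.00353, Fisher's exact test), in a comparison of 25 genes of which 68% passed (36% higher in TTP-AA), 9 higher and 8 lower, or 10 and 4 when scaled to all cDNAs. With a minimum of 10 cDNAs over both lists it entered the test through the TTP-AA list alone, so the call is no support beyond these counts. Of the other members, Mdm2 had 4 TTP-AA cDNAs and Gdf15 1, too few to be tested.

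With LPS time, the members parted ways in the TTP lists. From 0 h to 1 h, 1 of the 4 members tested rose and 1 fell, beside 47.5% of 276 genes that changed (23.9% higher and 23.6% lower). Gdf15 rose from 0.252% to 0.994% of 3′UTR cDNAs (odds ratio 3.98, adjusted p = 7.59e-06) and Cdkn1a fell from 0.938% to 0.481% (odds ratio 0.510, adjusted p = 0.00948; Fisher's exact test for both). Neither passed with each site counted once (adjusted p = 0.0845 and 0.0863, Fisher's exact test). Mdm2 had 1.79% and 1.56% (adjusted p = 0.465) and Ccng1 0.183% and 0.199% (adjusted p = 1.00; Fisher's exact test for both). Scaled to all cDNAs, Mdm2 fell (log2 ratio -0.63, adjusted p = 0.00815) and the direction of Ccng1 turned (-0.30, adjusted p = 0.723; Fisher's exact test for both), with 32 genes called higher and 93 lower instead of 66 and 65.

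From 1 h to 4 h, the TTP list lost all members. Mdm2 went from 149 cDNAs to none (adjusted p = 4.96e-05) and Gdf15 from 95 to none (adjusted p = 0.00276; Fisher's exact test for both), and both were called lower, beside 5.88% of 170 genes called lower. Cdkn1a (46 to 0, adjusted p = 0.132) and Ccng1 (19 to 0, adjusted p = 0.682) did not pass Fisher's exact test at the depth of the 4 h list. All 4 entered the test through the 1 h list alone, so the calls are no support beyond these counts. The call for Gdf15 was lost with each site counted once (adjusted p = 0.429, Fisher's exact test). Scaled to all cDNAs, Cdkn1a (adjusted p = 1.19e-04) and Ccng1 (adjusted p = 0.0401; Fisher's exact test for both) were called lower as well, and 4 genes were called higher and 47 lower instead of 24 and 10.

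In the TTP-AA lists, 2 of the 6 members tested rose from 0 h to 1 h, beside 2.73% of 2052 genes called higher, and 0 fell, beside 9.7% called lower. Mdm2 rose from 1.31% to 1.79% of 3′UTR cDNAs (odds ratio 1.37, adjusted p = 0.0473, Fisher's exact test), but fell with each site counted once (log2 ratio -0.77, adjusted p = 0.0114), and the call was lost when genes with fewer cDNAs were tested too (adjusted p = 0.0662). Gdf15 went from none to 288 cDNAs (adjusted p = 1.66e-06, Fisher's exact test), a call that was lost with each site counted once (adjusted p = 0.0636). Gdf15 entered this test through the 1 h list alone, so its call is no support beyond the counts. Cdkn1a had 0.566% and 0.522% (adjusted p = 0.916, Fisher's exact test), a difference that turned into a rise when scaled to all cDNAs (log2 ratio 1.42, adjusted p = 7.82e-09) and into a called fall with each site counted once (-1.40, adjusted p = 5.19e-04). The counts of Ccng1 (6 to 140), Mdm4 (2 to 8) and Trp53 (0 to 19) were not called. With that scaling 466 genes were called higher and 37 lower, instead of 56 and 199.

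From 1 h to 4 h with TTP-AA, Mdm2 fell from 1.79% to 0.400% of 3′UTR cDNAs (interval 0.156% to 1.02%, odds ratio 0.220, adjusted p = 0.00897, Fisher's exact test). It was 1 of 2 genes called lower among 1980, or 0.101%, and was no longer called with each site counted once (log2 ratio -0.24, adjusted p = 1.00, Fisher's exact test). The 4 h list held 1000 3′UTR cDNAs, and 1836 of the 1980 genes had none in 1 of the lists. A gene with a smaller share at 1 h could hardly be called lower, as for Ccng1 (140 to none, p = 0.411, Fisher's exact test). The 0.101% thus does not show how unusual the fall of Mdm2 was. Cdkn1a had 0.522% and 1.00% (adjusted p = 0.751, and 0.0271 with each site counted once), Gdf15 0.308% and 0.100% (adjusted p = 1.00; Fisher's exact test for both), and Ccng1 and Trp53 went from 140 and 19 cDNAs to none without passing (both adjusted p = 1.00). Scaled to all cDNAs, the direction of Cdkn1a turned (log2 ratio -2.41, adjusted p = 3.01e-10, Fisher's exact test), and 5 genes were called higher and 271 lower instead of 60 and 2.

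Whether the ratio of TTP-AA to TTP itself differed between times was tested by Zelen's exact test of equal odds ratios, adjusted over all genes with at least 10 cDNAs at each time. Between 0 h and 1 h, 0 of the 4 members that could be tested passed, beside 24.3% of 235 genes, although 3 of them had an unadjusted p under 0.05. The odds ratio of Mdm2 was 0.733 at 0 h and 1.15 at 1 h (p = 0.0170, adjusted p = 0.0666, Zelen's exact test). For Cdkn1a it was 0.601 and 1.08 (p = 0.0400, adjusted p = 0.124) and for Gdf15 0 and 0.308 (p = 0.0381, adjusted p = 0.121), whereas Ccng1 had 0.545 and 0.753 (p = 0.771, adjusted p = 0.944; Zelen's exact test for all 3). Restricted to sites with at least 2 cDNAs, Mdm2 (adjusted p = 0.00651) and Cdkn1a (adjusted p = 0.00112) passed, and scaled to all cDNAs Mdm2 (adjusted p = 1.42e-20), Cdkn1a (adjusted p = 5.08e-11), Gdf15 (adjusted p = 1.56e-04) and Ccng1 (adjusted p = 0.0128) did (Zelen's exact test for all). The restriction acts unequally on the lists. With TTP-AA at 1 h Mdm2 and Cdkn1a had 4.05 and 3.17 cDNAs per site, and in the other lists at 0 h and 1 h between 1.17 and 1.58. The passes under the restriction thus do not show that the ratio changed. Between 1 h and 4 h, Cdkn1a was the member tested and passed (adjusted p = 0.0161, Zelen's exact test), beside 48% of 25 genes, as its TTP cDNAs went from 46 to 0 and its TTP-AA cDNAs from 488 to 10. This call was lost when scaled to all cDNAs (adjusted p = 0.276, Zelen's exact test).

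In Mdm2, Cdkn1a, Ccng1 and Gdf15, the cDNAs gathered at the pentamers. With TTP at 1 h, 77.9% of the Mdm2 cDNAs had a whole AUUUA within 20 nt of the site, while 16.2% of its 3′UTR nucleotides do. The share was 73.9% for Cdkn1a (10.1% of nucleotides), 63.2% for Ccng1 (11.8%) and 95.8% for Gdf15 (70.0%). At 0 h the TTP shares were 87.2% for Mdm2, 73.2% for Cdkn1a and 100% for both Ccng1 (8 cDNAs) and Gdf15 (11 cDNAs), and the TTP-AA shares were 82.3% for Mdm2, 82.4% for Cdkn1a and 66.7% for Ccng1 (6 cDNAs).

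At 1 h these shares were compared between the proteins in the 131 genes with a pentamer and at least 10 cDNAs in each list. Of 4 members, 1 passed, beside 9.92% of all genes (9.16% lower and 0.763% higher in TTP-AA). In Mdm2, 60.0% (interval 57.6% to 62.3%) of the TTP-AA cDNAs lay near AUUUA against 77.9% (70.5% to 83.8%) of the TTP cDNAs, a difference of -17.9 percentage points (adjusted p = 3.68e-04, Fisher's exact test). The difference was also called within 10 nt (-17.3 points, adjusted p = 0.00188) and with each site counted once (-34.0 points, adjusted p = 1.21e-07; Fisher's exact test for both). The count of sites sets 413 TTP-AA sites against 98 TTP sites, where 216 of the 1335 nt lie near a pentamer. Further sites of the deeper list can thus fall mostly elsewhere, so this call is no added support. The difference of Mdm2 was lost within 50 nt (-9.92 points, adjusted p = 0.0669) and for the longer motif UAUUUAU (-0.573 points, adjusted p = 1.00; Fisher's exact test for both). The Mdm2 share was 87.2% of 78 cDNAs (TTP) and 82.3% of 79 (TTP-AA) at 0 h, and 77.9% of 149 and 60.0% of 1674 at 1 h. TTP-AA at 4 h had 4 of 4. The proteins were not compared at equal numbers of cDNAs, so a difference in share does not by itself show that they bound at different places.

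The other members did not pass. Cdkn1a had 64.3% with TTP-AA and 73.9% with TTP (adjusted p = 0.623), Ccng1 57.1% and 63.2% (adjusted p = 1.00) and Gdf15 94.8% and 95.8% (adjusted p = 1.00; Fisher's exact test for all 3). For the motif UAUUUAU, Gdf15 differed by 16.7 points with the higher share in TTP-AA (adjusted p = 0.0105, Fisher's exact test), while for AUUUA its difference was -0.998 points. The median difference over the 131 genes was -1.02 points, with 12 genes called lower and 1 higher in TTP-AA.

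**Figure D5:**
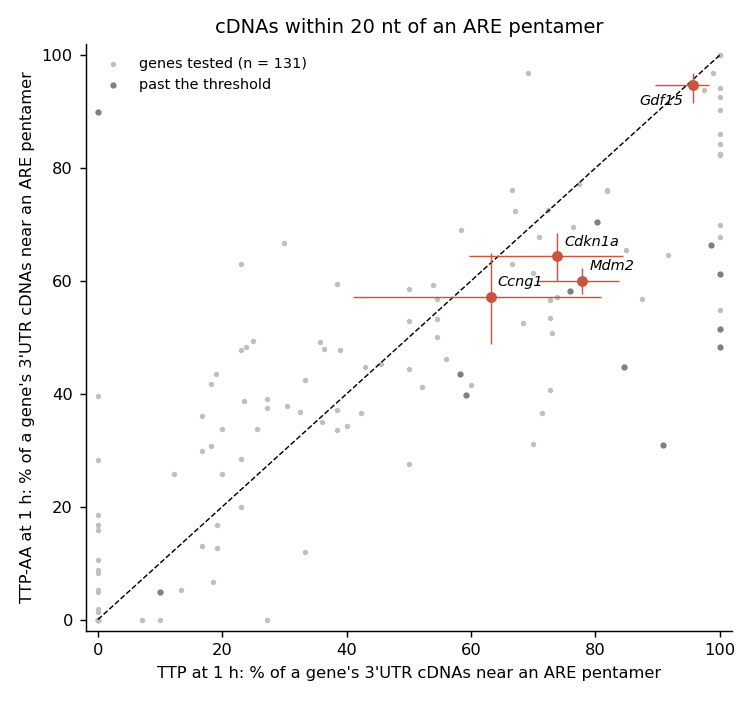
Percent of a gene's 3′UTR cDNAs within 20 nt of an AUUUA at 1 h with TTP (x axis) and TTP-AA (y axis) for the 131 genes tested (light grey), those past the threshold (dark grey) and the members (red, with 95% Wilson intervals). The dashed line marks equal shares. Mdm2 lay below it at 77.9% and 60.0%, and Gdf15 lay beside it at 95.8% and 94.8%.

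The sites of both proteins were compared in the members with sites in both lists. At 1 h, 146 of the 178 TTP sites (82.0%) lay at the same nucleotide as a TTP-AA site, and these were 19.8% of the 737 TTP-AA sites. Within 15 nt, 175 of the TTP sites (98.3%) had a TTP-AA site, and 568 of the TTP-AA sites (77.1%) had a TTP site. The value within 15 nt is near its ceiling and says little, since TTP-AA had 413 sites in the 1335 nt of Mdm2 and 82 in the 150 nt of Gdf15. At 0 h, 31 of 86 TTP sites (36.0%) lay at the same nucleotide as a TTP-AA site and 65 (75.6%) had one within 15 nt. The share at the same nucleotide also depends on the number of TTP-AA sites, 84 at 0 h and 737 at 1 h. The 82.0% and 36.0% thus do not show closer agreement at 1 h. Within 15 nt at 0 h, Cdkn1a shared 29 of 30 and Mdm2 36 of 51, whereas Ccng1 shared 0 of 5.

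U was the most frequent crosslinked base of Mdm2, Cdkn1a, Ccng1 and Gdf15 at 1 h. In Mdm2 at 1 h, U made up 56.4% of cDNAs with TTP and 56.5% with TTP-AA and A 29.5% and 30.2%, while the 3′UTR consists of 31.5% U and 29.6% A. Gdf15 had 52.6% U and 38.9% A for TTP and 48.6% U and 34.7% A for TTP-AA, in a 3′UTR with 38% U and 22.7% A. With TTP at 0 h, A was more frequent than U in Gdf15 (54.5% against 45.5% of 11 cDNAs) and in Ccng1 (50% against 37.5% of 8 cDNAs). On an AUUUA itself lay 28.9% (TTP) and 27.1% (TTP-AA) of the cDNAs of Mdm2, 45.3% and 35.1% of those of Gdf15, 57.9% and 27.9% of those of Ccng1, and 10.9% and 15.2% of those of Cdkn1a. The 19 Trp53 cDNAs were at U in 89.5%. Over all 3′UTR sites at 1 h, U made up 64.1% with TTP and 62.1% with TTP-AA.

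Of 59 other genes of the pathway, listed by role, 30 had 3′UTR cDNAs with TTP-AA at 1 h and 9 with TTP at 1 h. At 0 h these were 7 and 3, and at 4 h 1 and 0. Of all 21022 protein-coding genes with a 3′UTR, 4468 (TTP-AA) and 1295 (TTP) had 3′UTR cDNAs at 1 h. The numbers were 894 and 738 at 0 h and 198 and 127 at 4 h. More genes were thus listed with TTP-AA at 1 h in the whole list as well as in the pathway. Mdm2 alone had more cDNAs with TTP-AA at 1 h (1674) than the 59 genes together (1092). The 5 with most cDNAs at 1 h were Plk2, a kinase of the stress response (41 TTP and 319 TTP-AA cDNAs), Bax, which opens the mitochondrial outer membrane in apoptosis (13 and 103), Gtse1, a repressor of p53 in the cell cycle (0 and 88), Btg2, an antiproliferative partner of the CCR4-NOT deadenylase (11 and 55), and Trp53inp1, a stress-induced pro-apoptotic protein (0 and 58).

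In the comparison of the proteins at 1 h, 22 of these 59 genes could be tested and 2 passed, beside 6.39% of all genes tested. Of the 22, 13 had no TTP cDNAs and entered through the TTP-AA list alone, Gtse1 among them. Gtse1 was higher in TTP-AA (adjusted p = 0.00872), and Trp73, the p53 family member, was lower (31 cDNAs against 13 with TTP, odds ratio 0.243, adjusted p = 0.00419; Fisher's exact test for both), though scaled to all cDNAs the direction of Trp73 turned (log2 ratio 0.43, adjusted p = 0.457), and Gtse1 was not called with each site counted once (adjusted p = 0.108). From 0 h to 1 h with TTP, Plk2 (0 to 41 cDNAs, adjusted p = 4.37e-06), Btg2 (0 to 11, adjusted p = 0.0486) and Trp73 (0 to 13, adjusted p = 0.0362; Fisher's exact test for all 3) rose among 4 tested, beside 23.9% of all genes called higher, though scaled to all cDNAs Btg2 (adjusted p = 0.117) and Trp73 (adjusted p = 0.0879) were not called. Plk2, Btg2 and Trp73 had no TTP cDNAs at 0 h and entered the test through the 1 h list alone. Their calls are thus no support beyond these counts. With TTP-AA, Plk2 rose from 1 to 319 cDNAs (adjusted p = 4.48e-06, Fisher's exact test), the 1 call among 22, beside 2.73% of all genes called higher. It too reached the minimum of 10 cDNAs through the 1 h list. From 1 h to 4 h, 0 of 4 (TTP) and 0 of 22 (TTP-AA) were called, beside 5.88% and 0.101% of all genes called lower. At the depth of the 4 h lists a loss of all cDNAs could go uncalled, as for Bax with TTP-AA (103 to 0, p = 0.632, Fisher's exact test). The absence of calls is therefore no result about these genes. In Btg2, 30.9% of the TTP-AA and 90.9% of the TTP cDNAs lay near AUUUA at 1 h (adjusted p = 0.00596, Fisher's exact test), a difference lost within 50 nt (adjusted p = 0.0987) and turned within 10 nt (7.27 points). Here too the numbers of cDNAs were unequal, 55 with TTP-AA and 11 with TTP.

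The genes whose pattern over the 6 lists came nearest to that of each member were found by the Euclidean distance between log2 shares, among 459 genes with at least 50 cDNAs. The shares were not centred by gene, so the distance holds the level of a gene as well as its course over the lists. They were Cdkn1a (distance 3.13) and Spp1 (3.36) for Mdm2, B2m (1.48) and Spp1 (1.69) for Cdkn1a, Ybx1 (0.617) and Atp1b3 (0.744) for Ccng1, and Lyz2 (1.99) and Tnfaip3 (2.53) for Gdf15. Lyz2 had 8, 68 and 0 cDNAs with TTP and 0, 143 and 0 with TTP-AA, and so shared with Gdf15 the absence from the TTP-AA list at 0 h. The nearest gene to Mdm2 was farther away than that of any of the other 3. As Mdm2 ranked number 2 of 4468 genes with TTP-AA at 1 h, this distance does not show that its course over the lists was unusual.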

How the data were processed

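Samples were grouped by their titles into 6 groups of 15 libraries. Per the study's methods, the authors demultiplexed the libraries, collapsed PCR copies with 4 random barcode bases, aligned uniquely mapping reads to mm10 with Bowtie, annotated them with Ensembl 75 and set each crosslink 1 nt upstream of the cDNA. The authors deposited 1 list per group, in which the value of a site is a score: the number of unique cDNAs summed over libraries, with the sign giving the strand. The authors kept sites with a false-discovery rate under 0.05 (iCount, 100 permutations, 15 nt).

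Sites were assigned on the sense strand with GENCODE M21 (GRCm38), in the order 3′UTR, coding sequence, 5′UTR, non-coding exon, intron. Positions refer to the longest 3′UTR, whose sequence came from the GENCODE transcripts. All coordinates are 1-based.

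Genes with at least 10 cDNAs were compared between lists by two-sided Fisher's exact tests, and odds ratios between times by Zelen's exact test, with Benjamini-Hochberg adjustment over all genes tested. Log2 ratios of shares used a pseudocount of 0.5 cDNAs at the mean list total, and distances between patterns a pseudocount of 0.5 cDNAs. Windows of 30 nt were those with most cDNAs at 1 h. Alternatives counted sites once, scaled to all cDNAs with and without the chromosome 17 locus, required 2 cDNAs per site, used other minimums (1 and 20 cDNAs), basic transcripts, other motif windows (10 and 50 nt) and the motif UAUUUAU. The tests were tested on simulated data. Named genes were the 6 members, the 6 other pathway genes with most cDNAs at 1 h (of which 1 is not reported here, nor is 1 marker gene), any pathway gene past the threshold at 1 h, and the 2 nearest patterns of each member with at least 50 cDNAs. The members and gene lists were chosen with earlier results of these data known.

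Python 3.11.15, numpy 2.4.6, pandas 2.3.3, scipy 1.17.1 and matplotlib 3.10.9 were used. Wilson, Clopper-Pearson and Poisson intervals cover counting error at 95% and not losses from the short random barcode.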

Additional observations from a re-analysis of the deposited data

Results flagged for a closer look

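The ratio of TTP-AA to TTP differed between LPS times for 2 of the named genes by Zelen's exact test of equal odds ratios. For Gtse1, the TTP cDNAs went from 9 at 0 h to 0 at 1 h while the TTP-AA cDNAs went from 7 to 88, and the adjusted p was 0.00588, and it was 0.122 with each site counted once. For Cdkn1a, the TTP cDNAs went from 46 at 1 h to 0 at 4 h while the TTP-AA cDNAs went from 488 to 10, and the adjusted p was 0.0161. At 4 h Cdkn1a reached the minimum of 10 cDNAs through the TTP-AA list alone, as Gtse1 did at 1 h. For Cdkn1a, the adjusted p was 0.276 with shares of all cDNAs, 0.264 without the chromosome 17 locus and 0.0785 with genes of at least 1 cDNA. Each value compares pooled lists, without replicate error.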

How the results depend on the processing

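No paired analysis was possible because each list sums the libraries of its group, and leaving out single replicates was not run for the same reason. Below, counts are genes past the threshold and other values are log2 ratios, or percentage points for shares near a motif; the cause of the changes was not tested. Of the counts and shares that answer a comparison, 41 kept within their limits under an alternative and 31 moved, and of the values of single genes 313 kept their call, 56 gained one, 22 lost one and 46 turned.

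With each site counted once, TTP-AA against TTP had 31 genes at 0 h and 7 at 4 h, TTP 67 from 0 h to 1 h, and the change in odds ratio 35 from 0 h to 1 h and 7 from 1 h to 4 h. At 1 h, Mdm2 turned to -1.10 and Cdkn1a to -1.07. With TTP-AA, Mdm2 turned to -0.77 from 0 h to 1 h, and Gdf15 to 0.089 and Plk2 to 0.78 from 1 h to 4 h. The change in odds ratio turned for Mdm2 (-0.70), Cdkn1a (-0.66), Ccng1 (-0.080) and Bax (-0.67), and the share near AUUUA for Ccng1 (0.309) and Gdf15 (2.68).

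Scaled to all cDNAs, and in brackets without the chromosome 17 locus, 1763 (1644) genes were called between the proteins at 1 h, with TTP-AA 503 (488) from 0 h to 1 h and 276 (261) from 1 h to 4 h, and 132 (110) in odds ratio from 0 h to 1 h. Between the proteins Mdm2 at 0 h turned to 0.060 (0.0013), and at 1 h Mdm4 to 1.06 (0.77), Ccng1 to 2.05 (1.72), Gdf15 to 0.78 (0.46), Plk2 to 2.14 (1.81), Bax to 2.14 (1.82), Btg2 to 1.48 (1.16) and Trp73 to 0.43 (0.11). Ccng1 turned to -0.30 (-0.057) from 0 h to 1 h with TTP. With TTP-AA, Cdkn1a turned to 1.42 (1.41), Bax to 1.08 (1.07) and Gtse1 to 1.22 (1.20) from 0 h to 1 h, and Cdkn1a to -2.41 (-2.37) from 1 h to 4 h.

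With sites of at least 2 cDNAs, between the proteins 31 genes were called at 0 h, 64 at 1 h and 10 at 4 h, with TTP 47 from 0 h to 1 h and 14 from 1 h to 4 h, with TTP-AA 90 and 19, and in odds ratio 20 and 5. Plk2 (0.47) and Bax (0.29) turned at 1 h. With TTP-AA, Cdkn1a (1.17), Bax (0.20) and Gtse1 (5.88) turned from 0 h to 1 h, and Cdkn1a (-0.46) from 1 h to 4 h.

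With genes of at least 1 cDNA, 54 (TTP) and 109 (TTP-AA) were called from 1 h to 4 h. With at least 20, between the proteins 32 were called at 0 h and 10 at 4 h, with TTP 53 from 0 h to 1 h, and in odds ratio 27 and 5. The share near the motif turned for Cdkn1a (13.7) and Btg2 (7.27) within 10 nt and for Gdf15 (16.7) with UAUUUAU. At the same nucleotide, 36.0% of the TTP sites at 0 h and 82.0% at 1 h were shared, with 84 and 737 TTP-AA sites to share. Sites with at least 2 cDNAs in the share near AUUUA were chosen after seeing the data. The small 4 h totals limit what could be called there.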
